A study of Mus musculus with 10 samples.

Results

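The tumor necrosis factor (TNF) superfamily genes were examined in hypertrophied hepatic stellate cells (hypHSCs) and quiescent hepatic stellate cells (qHSCs) sorted from mouse liver. Members were taken by gene symbol: every symbol of the deposited table that began with Tnfsf, Tnfrsf, Tnfaip or Traf followed by a digit, and *Tnf*, *Lta*, *Ltb*, *Ltbr*, *Fas*, *Fasl*, *Cd40* and *Cd27*. This gave 57 of the 25233 entries with a symbol: 14 ligand entries, 1 antisense transcript, 24 receptors, 7 TNF receptor-associated factors (TRAFs), 3 TRAF3-interacting proteins and 8 TNFAIP genes. The latter are named as TNF-induced or as relatives of such a gene. All mice were C57BL/6J, with no transgene named in the labels. The 5 hypHSC libraries came from livers of mice fed the CDAHFD, a high-fat diet without choline that causes steatohepatitis and fibrosis, with 13 weeks of feeding and an age of 19 weeks for hypHSC 1 and 2, and 12 weeks of feeding and an age of 18 weeks for hypHSC 3, 4 and 5. The 5 qHSC libraries came from mice on standard diet, aged 36 weeks for qHSC 1, 2 and 5 and 34 weeks for qHSC 3 and 4. The hypHSCs were sorted on green retinoid fluorescence after a stronger liver digestion, and the qHSCs on blue fluorescence. The authors also saw bacterial contamination in cell preparations from CDAHFD livers but not from standard diet livers. They added antibiotics to most buffers of the CDAHFD preparations. Diet, age, digestion, bacteria, antibiotics and gate therefore cannot be told apart in these libraries. The preparations were picked on RNA quality from a larger number. The mouse behind each library is not given in the sources used here, and hypHSC samples outnumbered the mice they came from, so libraries may share a mouse and the spread between them may be partly technical.

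TNF superfamily ligands are mostly trimeric proteins made on the cell surface, from which some are cut by proteases, and they signal by clustering their receptors. Receptors without a death domain recruit TRAF adaptors, whereas death domain receptors recruit other adaptors first, and both routes can lead to NF-κB, MAP kinases or cell death. In the liver, macrophages are the classical source of TNF, and stellate cells are known as responders that carry TNF and lymphotoxin receptors and that release the decoy receptor osteoprotegerin.

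The values are normalized counts, reads per gene divided by the size factor of the library, and each library held between 30534719 and 47317028 reads on genes with a symbol. At this depth 3 reads, the floor of detection, equalled 2.25 to 4.54 normalized counts, which covers counting error alone. The labelled cell type was checked against marker lists, given as summed normalized counts over the list. All 8 stellate cell markers were lower in hypHSCs, with sums of 23152 to 52579.8 against 932651 to 1354497 in qHSCs, and *Lrat*, the retinol-esterifying enzyme that defines the stellate cell, had 1593 ± 709 and 105815 ± 23988 (mean ± SD, n = 5 and 5). Of 10 macrophage markers 9 were higher in hypHSCs, with sums of 1004105 to 1192229.9 against 3798 to 60922. *Adgre1*, which encodes the macrophage surface protein F4/80, had 5914, 7144, 8099.7, 5265 and 1113 normalized counts in hypHSC 1 to 5 and 882, 68.2, 67.7, 1579.6 and 60.7 in qHSC 1 to 5, so the groups overlapped. Neutrophil marker sums were 1853 to 7942 in hypHSCs against 3.75 to 389, cholangiocyte marker sums 161343 to 336684 against 30.8 to 387, with *Spp1* the bulk of the cholangiocyte sums in hypHSCs, and Kupffer cell marker sums 17553 to 38196 against 1119 to 42824. All 4 tested markers of 5 were higher for both neutrophils, where *Ly6g* had reads in only 1 of the 5 hypHSC libraries, and cholangiocytes, and 3 of 6 for Kupffer cells. T and NK cell sums (0 of 2 tested markers called) stayed at 44.9 to 728 and 5.96 to 165. The defining T cell marker *Cd3e* did not exceed 29.6 normalized counts in any library, whereas *Klrb1c* (NK1.1), not tested, had 135, 139, 8.32, 127 and 40.8 in hypHSC 1 to 5 and at most 0.75 in qHSCs, and *Cd3d* reached 83.2 and 18.9 (log2 fold change 2.66, adjusted p = 0.147). Of the B cell markers *Cd79b*, a subunit of the B cell receptor complex, was higher, with 183, 242, 164, 312 and 289 in hypHSC 1 to 5 and 27.1, 0, 6.3, 55.6 and 12.7 in qHSC 1 to 5 (log2 fold change 4.40, SE 0.91, adjusted p = 0.00214). Its partner *Cd79a* overlapped between the groups (22.7 ± 28.3 and 32.9 ± 24.2, log2 fold change -1.61, adjusted p = 0.318), *Ms4a1* reached 51.6 and 9.41 and *Pax5* was at 0 in all 10 libraries. These B, T and NK cell genes were named after their values were seen. Dendritic cell (2 of 5 tested markers higher, 1 lower), sinusoidal endothelial (1 higher and 1 lower of 5) and hepatocyte sums (0 of 5 called) overlapped or ran lower in hypHSCs (467 to 3667, 411 to 789.9 and 10625 to 83451, against 420.1 to 1034, 911 to 2196 and 19302 to 71456). Several lists, such as those of stellate cells and macrophages, moved with the group, while the sums of others overlapped. The part of the lists in the member results below was not tested. In such bulk libraries fewer cells of a type and less RNA per cell cannot be told apart.

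Members were called in both directions. Members such as *Tnf*, the chromosome 7 receptors *Tnfrsf22*, *Tnfrsf23* and *Tnfrsf26*, *Tnfrsf11a* (RANK) and *Tnfaip3* (A20) were far higher in hypHSCs. Genes for *Tnfrsf11b* (osteoprotegerin), *Tnfsf13b* (BAFF), the main TNF receptor *Tnfrsf1a* and *Traf2* were lower. Of the 57 members 40 had at least 10 normalized counts in at least 5 libraries and were tested with limma. A member was called where its adjusted p did not exceed 0.05 and its log2 fold change reached 1 in either direction. By this rule 14 of the 40 were higher in hypHSCs, against 17.8% of all 14630 genes tested. Lower were 9 of the 40, close to the 21.7% of all genes. The median log2 fold change (hypHSCs over qHSCs, on log2 of the normalized count plus 1) was 0.39 over the 40 members and -0.20 over all genes tested. Adding 1 can understate the change of low genes, whereas single libraries near 0 can overstate it. For example, the log2 fold change of *Traf4* was -2.51 here and -1.68 with DESeq2, and that of *Tnfrsf1b* -1.19 and 0.31. By role, 2 ligand entries were higher and 1 lower of 6 tested, 5 receptors higher and 4 lower of 16, 2 TRAFs higher and 2 lower of 7, 1 TRAF3-interacting gene higher and 1 lower of 3, and 3 TNFAIP genes higher and 1 lower of 7. The antisense transcript *Tnfsf13os* was also higher.

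The filter bears on these counts. Among the tested members 27 reached 10 normalized counts in all 10 libraries, and of them 7 were higher, 7 lower and 13 not called. A further 11 reached it in every library of 1 group only, 7 of them called higher and 2 lower. Members that passed through their higher group alone favour calls, so these counts are partly set by the filter. For 13 of the 40 tested members every hypHSC library lay above every qHSC library, against 17.6% of all genes tested. For 9 every hypHSC library lay below, close to the 22.0% of all genes. The groups overlapped for 3 called members, *Traf1*, *Traf4* and *Ltbr*. For the other 20 called members the exact permutation test (two-sided) gave p = 0.00794 each, as low as 5 libraries against 5 can reach. Full separation of the groups fixes this value, so it adds nothing to the separation counts above. The 14 rises and 9 falls kept their direction under every scaling of the libraries. Scaling on *Hprt*, *Pgk1* and *Actb* gave 14 higher and 15 lower members, and scaling to the same total 14 and 12, and these moved the median of all genes tested to -1.12 and -0.54.

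**Figure D1:**
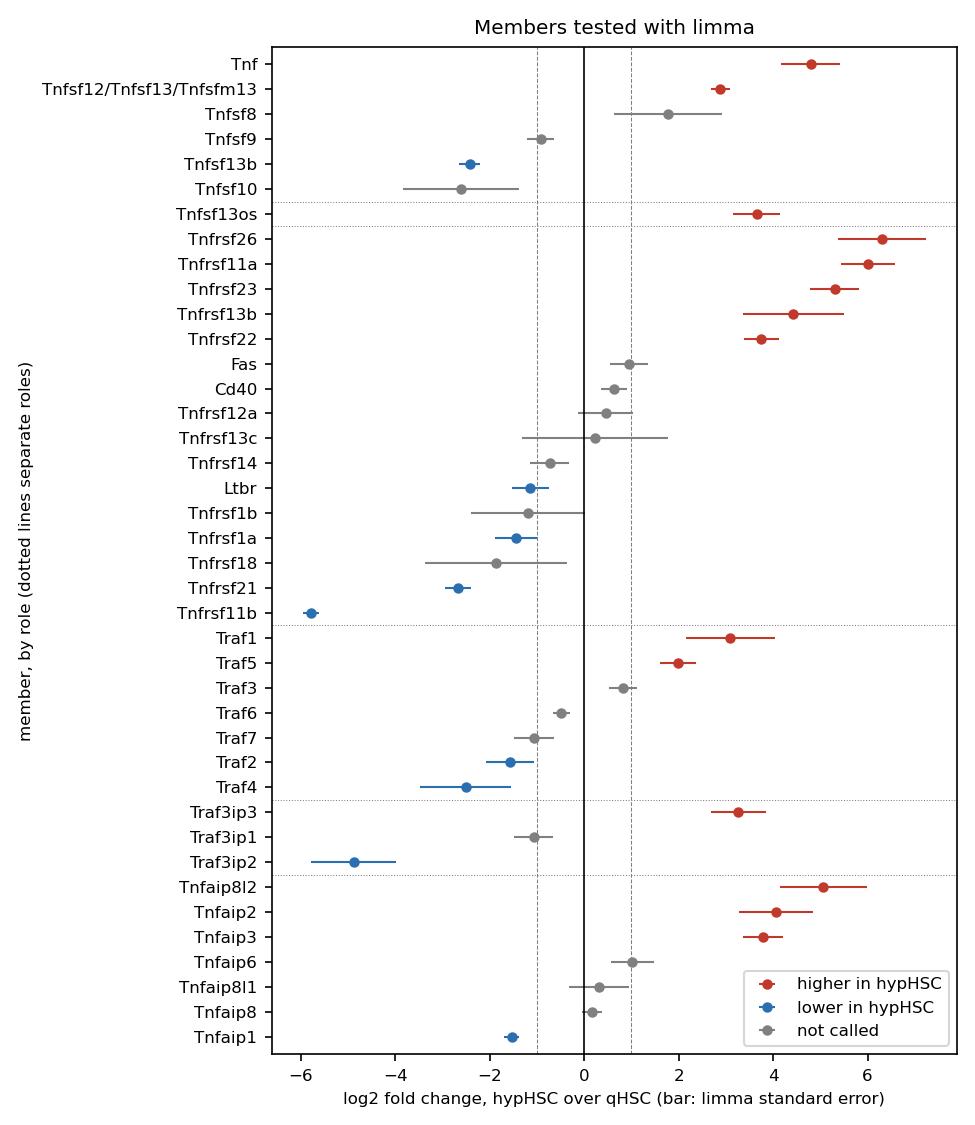
Log2 fold change of each of the 40 tested members (hypHSCs over qHSCs, x axis, limma estimate with its standard error as the bar), grouped by role with dotted lines between roles. Red marks the 14 members called higher, blue the 9 called lower and grey those not called, and *Tnfrsf26* at 6.30 and *Tnfrsf11b* at -5.78 are the ends of the range.

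The sequence upstream of the start site was read for the members from GRCm39 (mm39, the build of the deposited table), at the canonical start of the GENCODE annotation, as the 250 bases before the start and on the strand of the gene. The windows were searched on both strands for 3 short motifs: GGNNTTTCC, a form of the NF-κB site, in 4.86% of all 21757 protein-coding promoters, TGANTCA, the AP-1 site, in 6.18%, and GAGGAAGT, an ETS-type site, in 2.08%. Of 58 member promoters 7, 9 and 3 held them, in this order. Among the 15 promoters of members called higher these were 1, 2 and 1, and among the 9 lower 0, 1 and 0. Among the 17 not called they were 3, 3 and 1, as among the 17 not tested. A match was found in 5 called members, 4 of them higher and *Tnfsf13b* lower, and their windows are shown. Other forms of these sites were not searched, so a window without a match can still hold a site. Capitals mark the match, written on the strand of the gene, and no matches overlap. The canonical start can lie inside the outermost bounds that the deposited table gives for a gene. A match is a description of letters, and no binding was measured.
Tnfaip3 (chr10:18891187-18891436, minus strand): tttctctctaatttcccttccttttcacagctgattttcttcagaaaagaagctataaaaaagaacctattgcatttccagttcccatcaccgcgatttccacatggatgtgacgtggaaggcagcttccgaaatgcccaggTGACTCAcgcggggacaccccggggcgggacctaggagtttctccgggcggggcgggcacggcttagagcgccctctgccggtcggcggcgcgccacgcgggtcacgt
Traf1 (chr2:34848176-34848425, minus strand): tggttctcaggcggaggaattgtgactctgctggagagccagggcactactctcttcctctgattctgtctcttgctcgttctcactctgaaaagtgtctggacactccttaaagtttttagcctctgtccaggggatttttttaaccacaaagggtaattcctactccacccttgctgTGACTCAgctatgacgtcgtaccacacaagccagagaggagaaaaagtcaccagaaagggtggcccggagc
Tnfrsf13b (chr11:61017324-61017573, plus strand): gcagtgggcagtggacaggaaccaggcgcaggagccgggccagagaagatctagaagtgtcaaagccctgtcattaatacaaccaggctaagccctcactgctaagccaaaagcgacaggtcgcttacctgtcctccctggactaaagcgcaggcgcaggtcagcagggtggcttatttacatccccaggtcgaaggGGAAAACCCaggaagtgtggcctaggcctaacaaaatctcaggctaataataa
Traf3ip3 (chr1:192883856-192884105, minus strand): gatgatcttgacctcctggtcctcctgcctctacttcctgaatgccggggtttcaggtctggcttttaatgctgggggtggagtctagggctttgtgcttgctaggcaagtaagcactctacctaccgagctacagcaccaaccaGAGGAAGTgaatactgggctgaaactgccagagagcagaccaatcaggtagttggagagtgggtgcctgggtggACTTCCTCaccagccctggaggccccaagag
Tnfsf13b (chr8:10056383-10056632, plus strand): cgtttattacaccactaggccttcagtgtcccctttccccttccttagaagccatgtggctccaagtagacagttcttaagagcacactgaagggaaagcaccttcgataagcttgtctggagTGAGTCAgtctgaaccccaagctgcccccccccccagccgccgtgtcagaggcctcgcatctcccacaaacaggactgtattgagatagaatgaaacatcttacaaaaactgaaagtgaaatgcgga
The AP-1 letters lie 108 to 102 bases before the *Tnfaip3* start, 71 to 65 before that of *Traf1* and 127 to 121 before that of *Tnfsf13b*. The NF-κB letters of *Tnfrsf13b* lie 53 to 45 bases before its start, read on the opposite strand, and *Traf3ip3* has an ETS match at 105 to 98 bases and another at 31 to 24 on the opposite strand. Among members not called or not tested, matches were found for *Cd40*, *Fas*, *Tnfaip6*, *Tnfrsf8*, *Tnfrsf9*, *Tnfrsf12a*, *Tnfrsf25*, *Tnfsf14*, *Tnfsf15*, *Tnfsf18*, *Traf3*, *Traf6* and *Traf7*.

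Among the ligands, *Tnf* (chromosome 17, 35418343 to 35420984), the founding cytokine of the family, was higher in every hypHSC library. It had 2940.3, 3445, 2148, 1267 and 464 normalized counts in hypHSC 1 to 5 and 85.1, 17, 86.6, 119.8 and 46.5 in qHSC 1 to 5. The lowest hypHSC library, hypHSC 5, still stood above the highest qHSC library, qHSC 4, while the hypHSCs among themselves spread over a wide range (log2 fold change 4.79, SE 0.63, adjusted p = 9.51e-05, limma). Its neighbours on the same chromosome behaved differently in level. *Lta*, the gene of lymphotoxin alpha 1155 bases away, had no read in any library, and *Ltb*, that of lymphotoxin beta 2975 bases away on the other side, had 0, 0, 0, 37.8 and 0 normalized counts in hypHSC 1 to 5 and none in qHSCs.

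The joint TWEAK and APRIL entry was higher and BAFF lower in hypHSCs. The entry *Tnfsf12 // Tnfsf13 // Tnfsfm13* (chromosome 11, 69573403 to 69586925) joins TWEAK, APRIL, which acts on B cells as BAFF does, and their fusion transcript. These cannot be separated here, so a change of APRIL itself is not shown. It held 2335, 2785, 2180.4, 1692 and 1797 normalized counts in hypHSC 1 to 5 against 338, 258, 217, 361 and 282 in qHSC 1 to 5 (log2 fold change 2.89, SE 0.21, adjusted p = 1.39e-06). The groups did not overlap, and the 5 values within each group lay close together. The antisense transcript *Tnfsf13os* (chromosome 11, 69572858 to 69581967) overlaps this locus, and the libraries carry no strand, so its reads and those of the coding genes cannot be told apart where exons overlap (17.1% of its exon bases). Its values were 345, 381, 297, 309 and 268 in hypHSCs and 46.2, 15.3, 14.2, 67.6 and 12 in qHSCs (log2 fold change 3.65, SE 0.50, adjusted p = 0.000125). *Tnfsf13b* (chromosome 8, 10056465 to 10087845), which encodes the B cell survival factor BAFF, fell instead. It had 784, 828, 748, 1288 and 670.0 in hypHSC 1 to 5 and 3989, 4089.8, 6188, 3363 and 5520.0 in qHSC 1 to 5 (log2 fold change -2.42, SE 0.23, adjusted p = 8.85e-06), with a clear gap between the groups.

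*Tnfsf9*, the ligand of the T cell costimulator 4-1BB, was the other abundant ligand. It had 342, 689, 366, 387 and 457 normalized counts in hypHSC 1 to 5 and 914, 1134, 448, 851 and 922 in qHSCs. All qHSC libraries but qHSC 3 lay above every hypHSC library, and its fold change stayed under the limit of 1 (log2 fold change -0.91, SE 0.29, adjusted p = 0.0209). *Tnfsf10*, which encodes the death ligand TRAIL, ranged from 0 to 62 in hypHSCs and to 111 in qHSCs (log2 fold change -2.61, adjusted p = 0.0992), and *Tnfsf8*, the CD30 ligand, reached 42.5 and 50.7 (log2 fold change 1.78, adjusted p = 0.219). These 2 were not called. The remaining 6 ligands with any read, *Fasl*, *Ltb*, *Tnfsf4*, *Tnfsf14*, *Tnfsf15* and *Tnfsf18*, stayed at or below 58 normalized counts and were not tested. *Fasl*, *Tnfsf14* (LIGHT) and *Tnfsf15* (TL1A) had reads in hypHSCs only, in 3, 3 and 4 libraries. *Tnfsf11*, the RANK ligand, had none in any library.

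The TNF receptors did not follow their ligand. *Tnfrsf1a* (chromosome 6, 125326686 to 125341032), the death domain receptor TNFR1, had 2261, 3058, 2442, 1328 and 431 normalized counts in hypHSC 1 to 5 and 5202, 5304, 3470.4, 3976 and 3644 in qHSC 1 to 5. Every hypHSC library lay below every qHSC library, hypHSC 5 by far the most (log2 fold change -1.43, SE 0.46, adjusted p = 0.0227). Without hypHSC 5 the log2 fold change was -0.97 and the call was lost, and it was also lost without hypHSC 4, qHSC 1 or qHSC 2. *Tnfrsf1b* (chromosome 4, 144938938 to 144973443), the receptor TNFR2 that lacks a death domain, split the hypHSCs, with 552, 1369, 1279.8, 40.9 and 10.6 normalized counts in hypHSC 1 to 5 beside 686, 787, 439, 437 and 282 in qHSC 1 to 5. hypHSC 2 and 3 lay above all qHSCs, hypHSC 1 among them, and hypHSC 4 and 5 below all of them (log2 fold change -1.19, SE 1.21, adjusted p = 0.44). With hypHSC 1, 2 and 3 alone, an alternative chosen after seeing the data, the log2 fold change was 1.0 (adjusted p = 0.0505), and with DESeq2 on all libraries 0.31.

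The receptor RANK and its soluble competitor changed in opposite directions. *Tnfrsf11a* (chromosome 1, 105708442 to 105775707), which encodes RANK, had 660.3, 673, 625, 585 and 979 normalized counts in hypHSC 1 to 5 and 13.6, 5.11, 3.15, 41.1 and 8.24 in qHSC 1 to 5, several of the latter near the floor (log2 fold change 6.01, SE 0.57, adjusted p = 9.62e-06). *Tnfrsf11b* (chromosome 15, 54114015 to 54141880) encodes osteoprotegerin, a secreted decoy that binds RANK ligand. It fell from 9577, 14443, 10274, 14474 and 12014 in qHSC 1 to 5 to 219.6, 213, 195, 254 and 204 in hypHSC 1 to 5 (log2 fold change -5.78, SE 0.17, adjusted p = 7.11e-09). The 5 hypHSC values lay close together and the groups were far apart, and left-out libraries moved the log2 fold change only between -5.87 and -5.72. As given above, RANK ligand itself was not detected in either group.

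A cluster of receptor genes on chromosome 7 rose together. *Tnfrsf22* and *Tnfrsf23* encode decoy receptors for TRAIL that lack a signalling death domain, and *Tnfrsf26*, 6081 bases from *Tnfrsf22*, is a related receptor. *Tnfrsf22* (chromosome 7, 143188543 to 143203401) had 271, 344, 332, 350.4 and 342 normalized counts in hypHSC 1 to 5 against 21.7, 21.3, 12.6, 48.8 and 24 in qHSC 1 to 5 (log2 fold change 3.75, SE 0.37, adjusted p = 1.39e-05). *Tnfrsf23* (chromosome 7, 143219546 to 143239613) had 598, 447, 597, 330.5 and 455 against 3.62, 35.8, 15, 7.7 and 9.74 (log2 fold change 5.30, SE 0.52, adjusted p = 1.28e-05). *Tnfrsf26* (chromosome 7, 143161396 to 143182461) had 303, 704, 906, 1383 and 956 against 38.9, 4.26, 1.57, 61.6 and 1.5 (log2 fold change 6.30, SE 0.93, adjusted p = 0.000223). For each gene all hypHSC libraries stood above all qHSC libraries. *Tnfrsf22* was nearly level across the hypHSCs, whereas *Tnfrsf26* was lowest in hypHSC 1 and highest in hypHSC 4. *Tnfrsf22* and *Tnfrsf23* share exon stretches of up to 77 bases, longer than the 59-base reads, so their counts may mix in part.

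Of the 3 receptors of BAFF and APRIL, TACI was the one called. *Tnfrsf13b* (chromosome 11, 61017580 to 61040435), which encodes TACI, had 325, 466, 601, 547 and 153 normalized counts in hypHSC 1 to 5 and 97.8, 0, 18.1, 71 and 11.2 in qHSC 1 to 5. The groups did not overlap, but hypHSC 5 and qHSC 1 came close (log2 fold change 4.43, SE 1.07, adjusted p = 0.00561). *Tnfrsf13c*, the BAFF receptor, was between 0 and 75.6 in hypHSCs and between 0 and 30.7 in qHSCs (log2 fold change 0.23, adjusted p = 0.912), and *Tnfrsf17* (BCMA) reached 27.9 and 23.1 and was not tested. The differences between these receptors were not tested.

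*Tnfrsf21* (chromosome 17, 43327442 to 43400079), the death receptor DR6, had 239.9, 214, 308, 312 and 132 normalized counts in hypHSC 1 to 5 and 1379, 1901, 1093, 1314 and 1813 in qHSC 1 to 5, with no overlap (log2 fold change -2.67, SE 0.27, adjusted p = 1.65e-05). *Ltbr* (chromosome 6, 125283534 to 125290848), the lymphotoxin beta receptor, lies 35837 bases from *Tnfrsf1a*. It had 414, 329, 311, 172 and 96.8 normalized counts in hypHSC 1 to 5 and 511, 859.7, 454, 382 and 479 in qHSC 1 to 5, so that hypHSC 1 exceeded qHSC 4 (log2 fold change -1.13, SE 0.40, adjusted p = 0.0353, exact two-sided permutation p = 0.0159). Its call was lost when any of 6 libraries was left out, and without hypHSC 5 the log2 fold change was -0.82.

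Other receptors with substantial counts were not called. *Cd40*, the costimulatory receptor of antigen-presenting cells, had 590.2, 510.4, 388, 687 and 917 normalized counts in hypHSC 1 to 5 and 508, 297, 504, 333 and 327 in qHSCs (log2 fold change 0.63, adjusted p = 0.0776). *Tnfrsf12a*, the TWEAK receptor Fn14, had 932, 642, 952, 352 and 87.7 and 303, 269, 433, 442 and 233, with hypHSC 1, 2 and 3 above and hypHSC 5 below all qHSCs (log2 fold change 0.46, adjusted p = 0.546). All its exon bases are shared with the annotated gene *Hcfc1r1*, so its counts are uncertain, and *Hcfc1r1* itself was not called (log2 fold change 0.67, adjusted p = 0.00692). The death receptor *Fas* had 337 ± 139.6 in hypHSCs and 175 ± 82.9 in qHSCs (log2 fold change 0.95, adjusted p = 0.0714). *Tnfrsf14* (HVEM, a receptor of LIGHT) had 40.6 ± 18.3 and 63.8 ± 14.4, and *Tnfrsf18* (GITR, a T cell costimulator) 73.5 ± 87.8 and 67.4 ± 31, the latter from 0 in hypHSC 4 and 5 to 206 in hypHSC 1 (adjusted p = 0.171 and 0.328). *Tnfrsf8*, the activation receptor CD30, failed the filter with 71.4, 80.8, 60.7, 6.29 and 40.8 normalized counts in hypHSC 1 to 5 and at most 0.79 in qHSCs, so every hypHSC library lay above the qHSCs. *Tnfrsf19* (TROY) had 41.8, 32.1, 25.8, 0 and 0 in hypHSCs and no read in qHSCs. The other 6 receptors not tested, *Cd27*, *Tnfrsf4* (OX40), *Tnfrsf9* (4-1BB), *Tnfrsf10b* (DR5), *Tnfrsf17* and *Tnfrsf25* (DR3), stayed at or below 66 in hypHSCs and 23.1 in qHSCs.

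**Figure D2:**
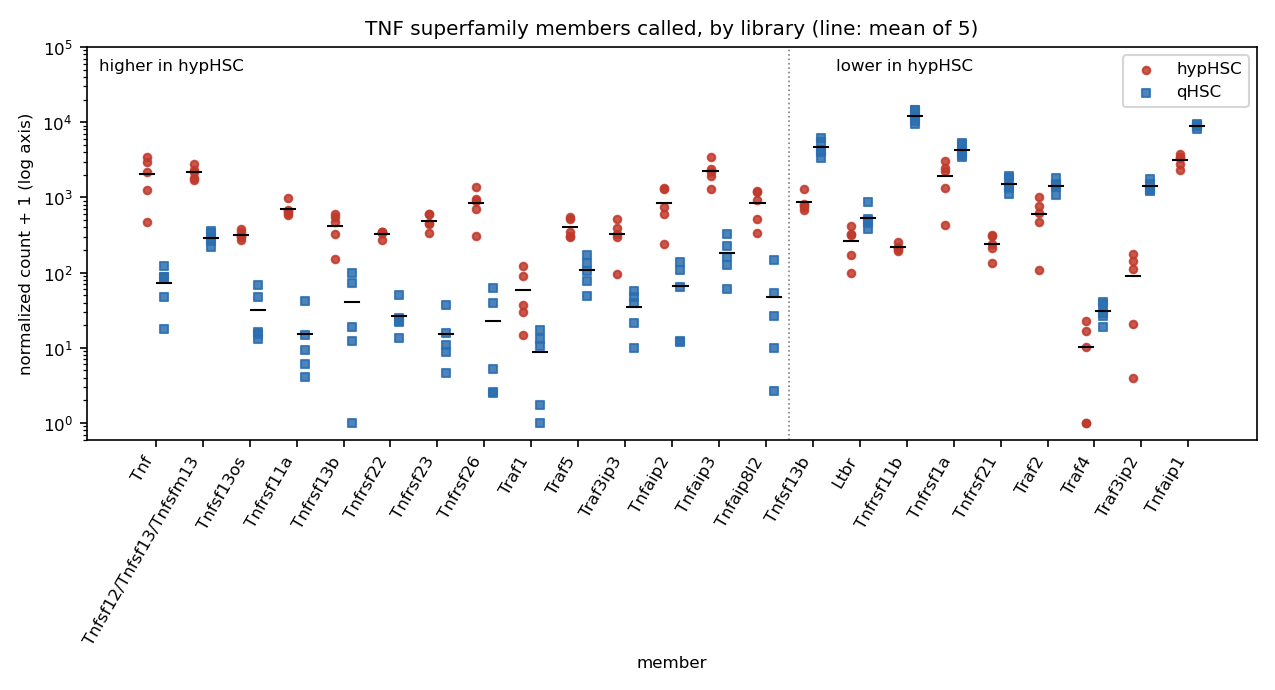
Normalized count plus 1 (log axis) of the 23 called members in each library, red circles for hypHSCs and blue squares for qHSCs, with a black line at the mean of 5 libraries. The 14 members left of the dotted line were called higher in hypHSCs and the 9 to its right lower, and overlap between the groups is seen for *Traf1*, *Traf4* and *Ltbr*.

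Among the TRAF adaptors, *Traf1* and *Traf5* were higher and *Traf2* and *Traf4* lower. *Traf5* (chromosome 1, 191729164 to 191776899), a close relative of TRAF2, had 303, 549.7, 511, 299 and 351 normalized counts in hypHSC 1 to 5 and 48, 76.7, 104, 173 and 133 in qHSC 1 to 5, all hypHSCs above all qHSCs (log2 fold change 1.98, SE 0.37, adjusted p = 0.00118). *Traf1* (chromosome 2, 34831762 to 34851785), an NF-κB-induced partner of TRAF2, was low, with 90.3, 123, 36.6, 13.6 and 28.7 in hypHSC 1 to 5 and 16.3, 0, 9.45, 12 and 0.75 in qHSC 1 to 5, and hypHSC 4 lay within the qHSC range (log2 fold change 3.09, SE 0.94, adjusted p = 0.0187, exact two-sided permutation p = 0.0159). With the hypHSCs of 12 weeks alone the *Traf1* log2 fold change was 2.27 (adjusted p = 0.112). *Traf2* (chromosome 2, 25406108 to 25436952), the adaptor shared by TNFR1 and TNFR2, had 1020.1, 779, 619.5, 467 and 106 in hypHSC 1 to 5 and 1068, 1359, 1453, 1503 and 1796 in qHSC 1 to 5. The groups were separate, though hypHSC 1 was close to qHSC 1 and hypHSC 5 far below (log2 fold change -1.57, SE 0.51, adjusted p = 0.025), and without qHSC 5 the log2 fold change was -1.48 and not called. *Traf4* (chromosome 11, 78048137 to 78056416), known from epithelial cells, stayed at 21.6, 0, 9.15, 15.7 and 0 in hypHSC 1 to 5 and 39.8, 17.9, 37.8, 25.7 and 27.7 in qHSC 1 to 5 and was at the limit of the test (log2 fold change -2.51, SE 0.96, adjusted p = 0.0492). hypHSC 1 exceeded qHSC 2, so the groups overlapped (exact two-sided permutation p = 0.0159). Its call was lost in 8 of the 10 fits that left out a library, all but those without hypHSC 1 or hypHSC 4, and with DESeq2 (log2 fold change -1.68) or edgeR (-1.67).

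The other 3 TRAFs were not called. *Traf3*, a brake on the alternative NF-κB pathway, averaged 320.2 ± 81.7 normalized counts in the hypHSCs against 182 ± 53.8 in the qHSCs (log2 fold change 0.82, adjusted p = 0.0366). *Traf6*, which also serves toll-like and interleukin 1 receptors, had 383, 495, 433, 462 and 374 and 529, 734, 583, 539.9 and 623. These *Traf6* groups did not overlap, but the fold change was small (log2 fold change -0.48, adjusted p = 0.0458). *Traf7*, a divergent family member with a ubiquitin ligase domain, had 1660.1, 1751, 2282, 1285 and 371 and 2840.2, 3223, 2399.7, 2090.4 and 2742 (log2 fold change -1.06, adjusted p = 0.0541), with hypHSC 5 far below the rest.

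Of the TRAF3-interacting genes, *Traf3ip2* (chromosome 10, 39488923 to 39531303), which encodes the interleukin 17 receptor adaptor ACT1, fell the most. It had 177, 111, 139.7, 19.9 and 3.02 normalized counts in hypHSC 1 to 5 and 1494, 1772, 1237, 1226 and 1269 in qHSC 1 to 5, with hypHSC 4 and 5 lowest (log2 fold change -4.88, SE 0.90, adjusted p = 0.00106). Other genes cover 28.3% of its exon bases, among them *E130307A14Rik*, which was also lower (log2 fold change -1.53, adjusted p = 0.00092). *Traf3ip3* (chromosome 1, 192857813 to 192883856), a lymphoid-enriched TRAF3 partner, rose, with 326, 516, 301, 93.4 and 386 against 38, 20.4, 55.1, 47.1 and 8.99 and no overlap (log2 fold change 3.27, SE 0.59, adjusted p = 0.000862). *Traf3ip1*, a ciliary transport subunit, had 33.5 ± 12.3 and 68.1 ± 15.5, below the qHSCs in every hypHSC library but not called (log2 fold change -1.07, adjusted p = 0.053).

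The TNFAIP genes share a name but not a function. The name stands for induction by TNF or, for *Tnfaip8l1*, *Tnfaip8l2* and *Tnfaip8l3*, for likeness to *Tnfaip8*. *Tnfaip3* (chromosome 10, 18876661 to 18891158) encodes A20, a ubiquitin editor that restrains NF-κB. It had 2187, 3404, 2359, 1945 and 1305 normalized counts in hypHSC 1 to 5 and 161, 58.8, 326, 222 and 126 in qHSC 1 to 5 (log2 fold change 3.78, SE 0.42, adjusted p = 3.14e-05). *Tnfaip2* (chromosome 12, 111409092 to 111421451), which encodes the membrane nanotube protein M-Sec, had 739.8, 1304, 1344, 597 and 236 against 63.4, 11.1, 139, 106 and 11.2 (log2 fold change 4.06, SE 0.78, adjusted p = 0.00135). Both were above the qHSCs in every hypHSC library and lowest in hypHSC 5. *Tnfaip8l2* (chromosome 3, 95046832 to 95049673), the immune regulator TIPE2, had 909.6, 1187, 1234, 508 and 339 against 52.5, 1.7, 25.2, 145 and 8.99 (log2 fold change 5.06, SE 0.92, adjusted p = 0.000945). Its exons share 43.5% of their bases with other genes, mainly *Lysmd1*, whose own log2 fold change was 0.55 (adjusted p = 0.225). *Tnfaip1* (chromosome 11, 78413675 to 78427086), an adaptor of a ubiquitin ligase, fell evenly, from 8186, 9119, 9429, 8859 and 8982 in qHSC 1 to 5 to 3477, 3729, 3302, 2769.6 and 2339.8 in hypHSC 1 to 5 (log2 fold change -1.53, SE 0.16, adjusted p = 1.63e-05). Of its exon bases 24.6% overlap *Ift20* and *Poldip2*, and *Poldip2* was also lower (log2 fold change -1.49, adjusted p = 0.000322).

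The rest of the TNFAIP genes were not called. *Tnfaip8*, an apoptosis regulator, was abundant in both groups, with 6572, 6689.8, 5622, 5583 and 4807 normalized counts in hypHSC 1 to 5 and 5303, 6123, 3152, 6608 and 5449.6 in qHSCs (log2 fold change 0.17, adjusted p = 0.527). Its sign turned under scaling to the same total and on *Hprt*, *Pgk1* and *Actb*. *Tnfaip6*, which encodes the hyaluronan-binding protein TSG-6, had 223 ± 109 and 109.7 ± 67.2 (log2 fold change 1.02, adjusted p = 0.086). *Tnfaip8l1*, a relative of *Tnfaip8*, had 111 ± 67.2 and 75.3 ± 40.9, and *Tnfaip8l3* stayed at or below 25.8 and was not tested.

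To compare levels between genes, reads were divided by exon length and depth (FPKM). In hypHSCs *Tnf* had the highest mean of the members at 30.9 ± 18.9 FPKM (mean ± SD, n = 5), ahead of *Tnfrsf1a* at 15 ± 8.73, the *Tnfsf12* and *Tnfsf13* entry at 13.8 ± 3.67, *Tnfaip8* at 13.6 ± 2.65 and *Tnfaip1* at 11.2 ± 2.86. These neighbours in the order differ by less than their spread. *Tnf* lay above *Tnfrsf1a* in every hypHSC library. In hypHSC 5, however, *Tnf* (5.93) lay below several members, among them the *Tnfsf12* and *Tnfsf13* entry (9.94), *Tnfaip8* (9.72) and *Tnfaip1* (7.26). In qHSCs *Tnfrsf11b* led at 123 ± 22.1 FPKM, followed by *Tnfrsf1a* at 41.9 ± 8.68, *Tnfaip1* at 40.4 ± 3.25, *Tnfsf13b* at 20.6 ± 5.58 and *Tnfsf9* at 19.5 ± 5.39. The steps from *Tnfrsf11b* to *Tnfrsf1a* and from *Tnfaip1* to *Tnfsf13b* exceeded the SDs, those between *Tnfrsf1a* and *Tnfaip1* and between *Tnfsf13b* and *Tnfsf9* did not, and *Tnf* was in place 20 at 1.34 ± 0.772.

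Ratios of paired members were taken within libraries on the FPKM scale. The ratio of *Tnf* to *Tnfrsf1a* was 2.5, 2.17, 1.69, 1.83 and 2.07 in hypHSC 1 to 5 and 0.0314, 0.00617, 0.0479, 0.0579 and 0.0245 in qHSC 1 to 5. It was narrow across hypHSCs although *Tnf* and *Tnfrsf1a* each differed widely between them. The ratio of *Tnfrsf11a* to *Tnfrsf11b* was 1.2, 1.26, 1.28, 0.919 and 1.91 in hypHSCs and at most 0.00113 in qHSCs, where osteoprotegerin far outweighed RANK. The ratio of the *Tnfsf12* and *Tnfsf13* entry to *Tnfsf13b* was between 2.39 and 6.11 in hypHSCs and between 0.0635 and 0.195 in qHSCs. For *Tnfrsf1b* to *Tnfrsf1a* it was 0.155, 0.285, 0.334, 0.0196 and 0.0156 in hypHSC 1 to 5 and 0.0839, 0.0944, 0.0804, 0.07 and 0.0492 in qHSC 1 to 5, so the hypHSCs lay on both sides of the qHSCs. These ratios use the exons of the annotation as length and were not tested.

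**Figure D3:**
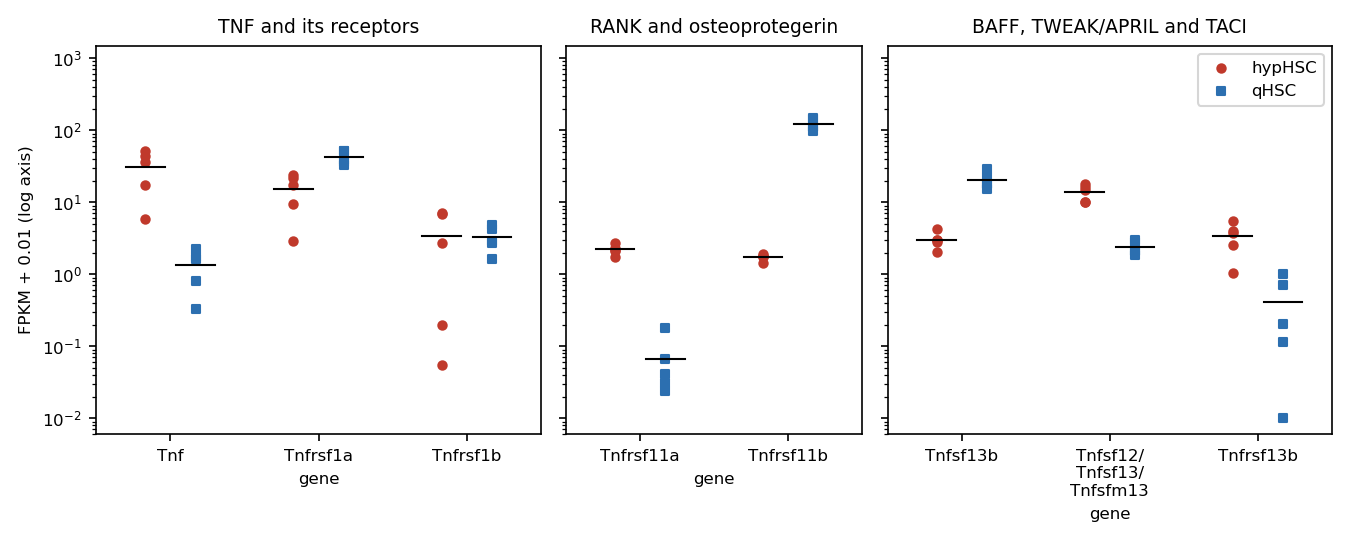
FPKM plus 0.01 (log axis) in each library for TNF and its receptors (left), RANK and osteoprotegerin (middle) and BAFF, the TWEAK and APRIL entry and TACI (right), with red circles for hypHSCs, blue squares for qHSCs and a black line at the mean of 5 libraries. *Tnfrsf11a* and *Tnfrsf11b* lie at about the same level in hypHSCs and far apart in qHSCs, and *Tnfrsf1b* of hypHSC 4 and 5 lies below all qHSCs.

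The members were not spread evenly over libraries. Of the 40 tested members hypHSC 5 was the lowest hypHSC library for 21 (52.5%, against 38.1% of all genes tested) and hypHSC 2 the highest for 18 (45%, against 20.7%). Mitochondrial reads made up 12.8% of hypHSC 1 and 7.27% of hypHSC 2 and at most 3.42% of the other hypHSCs. Genes with a symbol and reads numbered 16634, 15821, 16329, 14949 and 14028 in hypHSC 1 to 5, against 15703 to 16211 in qHSCs. So hypHSC 4 and 5 detected the fewest genes, and the part of this in their low member values was not tested. Within the qHSCs, qHSC 4 and qHSC 1 had the highest macrophage marker sums, 60922 and 28261 against at most 7993 in the others. For 7 of the 14 members called higher (50%) these were also the top 2 qHSC libraries, against 27.1% of all genes called higher. The 7 were *Tnfrsf11a*, *Tnfrsf13b*, *Tnfrsf26*, *Tnfaip8l2*, *Traf1*, *Tnfsf13os* and the *Tnfsf12* and *Tnfsf13* entry. qHSC 1 and 4 were the top 2 for 0 of the 9 members called lower, against 4.53% of all genes called lower. Without qHSC 1 and 4, chosen after seeing the data, 14 members were higher and 5 lower. Over all genes tested 2391 were then higher and 2483 lower, against 2602 and 3177 with all libraries. With hypHSC 1, 2 and 3 alone, chosen likewise, 17 members were higher and 5 lower, and over all genes 2786 and 3130. The macrophage share of the member values was not tested.

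Downstream of the receptors the lists of pathway genes, drawn from general knowledge, are given beside the shares of all genes tested, 17.8% called higher and 21.7% lower. In the NF-κB and IKK core 1 gene was higher and 3 lower of 18 tested, both shares below those of all genes. Scaling on *Hprt*, *Pgk1* and *Actb* gave 1 and 7. *Rel*, the subunit c-Rel, was higher (593 ± 181 against 127 ± 39 normalized counts, log2 fold change 2.20, adjusted p = 0.000327). *Rela*, the subunit p65, was lower (758 ± 532 against 1655 ± 238, log2 fold change -1.59, adjusted p = 0.0444). The inhibitor *Nfkbie* (log2 fold change -1.45, adjusted p = 0.0269) and *Nfkbiz* (log2 fold change -1.94, adjusted p = 0.000138) were also lower. *Nfkb1*, *Nfkb2* and *Nfkbia*, the usual feedback inhibitor, were not called (log2 fold changes -0.08, 0.30 and -0.34).

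Of 19 receptor-proximal adaptors and ubiquitin editors 4 were higher and 2 lower, near and below the shares of all genes. Scaling to the same total gave 2 higher and 4 lower, and scaling on *Hprt*, *Pgk1* and *Actb* 1 and 12. *Tnip3*, which encodes an A20-binding inhibitor of NF-κB, averaged 2726 ± 470.3 normalized counts in the hypHSCs against 9.82 ± 10.3 in the qHSCs (log2 fold change 8.97, SE 0.89, adjusted p = 1.34e-05). *Otulin*, which removes linear ubiquitin chains, *Ripk1*, the kinase of the TNFR1 complex, and *Tank*, a TRAF-binding protein, were higher by 2.20, 1.26 and 1.10 on the log2 scale. *Birc3*, the ubiquitin ligase cIAP2 that binds TRAF2, and the deubiquitinase *Otud7b* were lower (-1.24 and -2.17). The adaptors *Tradd* and *Fadd* were not called (-0.77 and 0.27, adjusted p = 0.261 and 0.506).

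Of 17 death effectors and brakes 8 were higher and 1 lower. With the same total 6 were higher and 3 lower, and on *Hprt*, *Pgk1* and *Actb* 3 and 6. Over all genes the share of calls that were higher fell as well, from 45% to 32.4% and 17.4%. The survival genes *Bcl2a1b* and *Bcl2a1d*, near-identical copies whose reads may be split between them, had 29979 ± 7580.1 and 14519 ± 4311 normalized counts in hypHSCs against 652 ± 638 and 354 ± 315 in qHSCs (6.11 and 5.81 on the log2 scale). *Ripk3*, the necroptosis kinase, was higher with overlapping groups (log2 fold change 2.35, adjusted p = 0.0168), and *Bcl2*, another survival gene, was lower (log2 fold change -2.67, adjusted p = 6.00e-06). The list holds death-promoting genes that were higher, such as *Bid*, *Bax* and *Casp8* (2.02, 1.20 and 1.0) beside survival genes that were higher, such as *Mcl1*, at 9223 ± 4754 against 2996 ± 325 normalized counts. Of 12 genes of the MAP kinase arm 1 was higher and 2 lower, both shares below those of all genes. Higher was *Map3k5*, the kinase ASK1 (1.27), with overlapping groups. Lower were the JNK gene *Mapk9* (-1.68) and *Map2k7* (-3.23, SE 1.04, adjusted p = 0.0244, limma). *Map2k7* lay under the mean of 100 used for naming list genes. It had 39.1, 5.18, 74, 2.1 and 0 normalized counts in hypHSC 1 to 5 and 83.1 ± 8.43 in qHSCs. With the same total 0 were higher and 6 lower, and on *Hprt*, *Pgk1* and *Actb* 0 and 7.

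Of 8 genes for shedding of ligands and receptors 4 were higher and 1 lower. *Adam17*, the TNF-converting enzyme, averaged 2915 ± 829.7 normalized counts in the hypHSCs against 1068 ± 176 in the qHSCs (log2 fold change 1.42, SE 0.22, adjusted p = 0.000274). *Adam10*, *Rhbdf2*, a maturation partner of ADAM17, and *Furin*, which processes APRIL and BAFF, were higher by 1.60, 1.23 and 1.03. For *Rhbdf2* the groups overlapped. The related partner *Rhbdf1* was lower, from 1039.9 ± 102 in qHSCs to 174 ± 132 in hypHSCs (log2 fold change -3.45, adjusted p = 0.00996). With the same total 2 of this list were higher and 2 lower, and on *Hprt*, *Pgk1* and *Actb* 0 and 2.

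Of 21 genes that TNF can induce in many cells, 20 were tested, 8 higher and 4 lower. With the same total these were 6 and 5, and on *Hprt*, *Pgk1* and *Actb* 6 and 7. Under these scalings 32.4% and 17.4% of the calls over all genes were higher. The neutrophil chemokine *Cxcl2* had 5575 ± 1815 normalized counts in hypHSCs against 155 ± 90.7 in qHSCs (log2 fold change 5.31, adjusted p = 2.04e-06), the acute-phase gene *Saa3* 1327 ± 353 against 47.8 ± 55.3 (log2 fold change 5.34, adjusted p = 2.79e-05), and the macrophage chemokine *Ccl3* 11279 ± 3744 against 657 ± 529 (log2 fold change 4.39, adjusted p = 2.11e-05). Lower were *Csf1*, the macrophage growth factor (log2 fold change -3.54, adjusted p = 0.00191), *Cxcl10* (log2 fold change -2.24, adjusted p = 0.00304) and *Ccl2*, the monocyte chemokine (12280.0 ± 7555 against 51294 ± 34776, log2 fold change -1.93, adjusted p = 0.0123). For *Cxcl10* and *Ccl2* the groups overlapped. *Vcam1* was lower as well (-1.79), while *Icam1*, *Cxcl1*, *Sod2* and *Ier3* were not called (-1.31, -0.25, 0.21 and 0.06). Medians over the tested genes were 0.81 for these targets, 0.85 for the death list, 0.69 for shedding, 0.19 for the NF-κB core, -0.35 for the adaptors and -0.71 for the MAP kinase arm, beside the -0.20 of all genes tested.

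**Figure D4:**
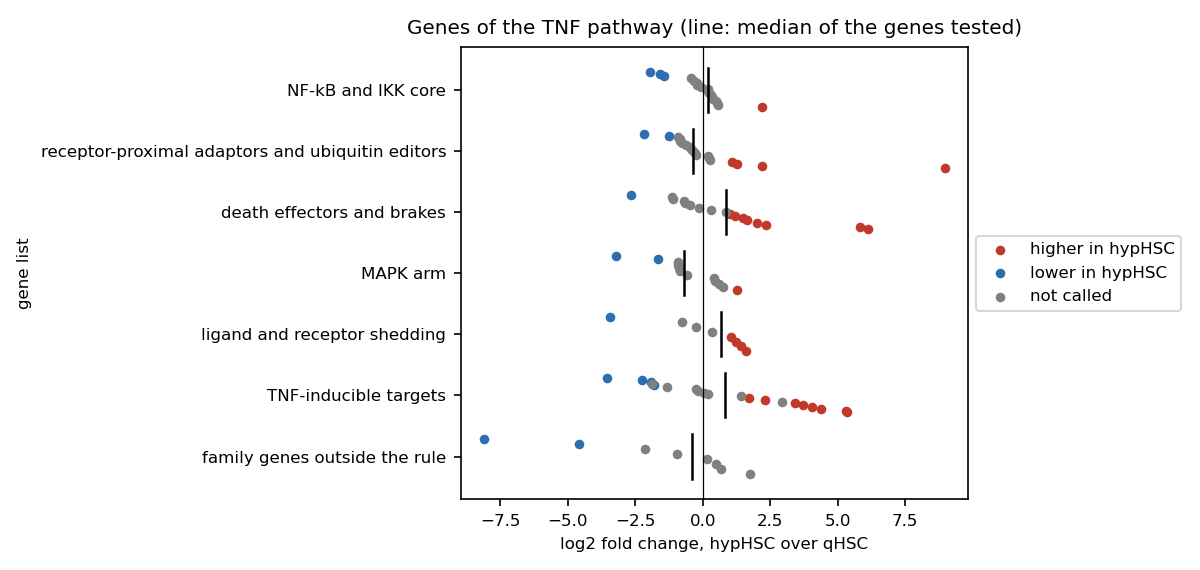
Log2 fold change (hypHSCs over qHSCs, x axis) of each tested gene in the 7 lists of the TNF pathway, with a black line at the median of each list, red for genes called higher, blue for lower and grey for not called. Each list but that of family genes outside the member rule holds genes called in both directions, and the highest point is *Tnip3* at 8.97.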

How the data were processed

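Sorted cells of 5 hypHSC and 5 qHSC preparations were sequenced by the authors as paired 59-base reads from oligo(dT)-primed, amplified and unstranded cDNA. As their methods and the labels state, reads were mapped to mm39 (GRCm39) with STAR and counted per gene with featureCounts (Subread 1.5.0) on the FAST DB annotation. The authors deposited these counts after division by the DESeq2 size factor of each library, a normalized signal. Undoing the division returned whole reads in 100% of cases (tolerance 0.02), used for FPKM, DESeq2 and edgeR. No 2 libraries agreed within sampling noise.

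Genes that had a symbol and reached 10 normalized counts in 5 or more libraries were compared as log2(normalized count + 1) with limma 3.58.1 (R 4.3.3, intensity trend, Benjamini-Hochberg over 14630 genes), with calls at an adjusted p up to 0.05 and a log2 fold change of 1 or more in either direction. Exact two-sided permutation tests used every arrangement of the libraries. Alternatives were other pseudocounts, filters and scalings, DESeq2 1.42.0, edgeR 4.0.16, a replicate block, the hypHSCs of 12 weeks alone, entries without a symbol included, and each library left out. FPKM used reads on genes with a symbol and the exon length of GENCODE vM39. The fit was tested on simulated data with 200 changed genes. The text may name every member, gives each library's value for called members and those with a group mean of at least 500 normalized counts, and names the 3 called list genes with the largest rise and fall (group mean of at least 100) or those whose role is described. The members and lists were chosen with earlier results of these data known. Protein sequences were not used here, and 1 B cell marker is not reported here.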

Additional observations from a re-analysis of the deposited data

Results flagged for a closer look

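Within groups of 5 libraries, a value was picked out when its gap to the nearest other library exceeded 0.71 of the range of the group (Dixon's criterion at 95%). Of 60 groups checked over 30 members, 5 values stood apart, and chance alone gives about 1 in 20 groups. *Tnfsf13b* (BAFF) was 1288 normalized counts in hypHSC 4, against 670.0 to 828 in the other hypHSCs. *Ltbr* was 859.7 in qHSC 2, against 382 to 511 in the other qHSCs, and without that library its log2 fold change was -0.95 and not called. *Tnfrsf11a* (RANK) stood apart in both groups, at 979 in hypHSC 5 against 585 to 673, and at 41.1 in qHSC 4 against 3.15 to 13.6. The latter library also had the highest macrophage marker sum of the qHSCs, and the part of that in the value was not tested. *Tnfrsf22* was lowest in hypHSC 1, at 271 against 332 to 350.4.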

How the results depend on the processing

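Of the 23 called members 18 stayed called in the same direction under every alternative, and 19 with each library left out. The exceptions were *Traf1* (hypHSCs of 12 weeks) and *Traf2*, *Traf4*, *Ltbr* and *Tnfrsf1a*, which each lost the call in at least 1 fit with a library left out. The number of members higher stayed between 13 (hypHSCs of 12 weeks) and 17 (no filter, or hypHSC 1, 2 and 3 alone). The fits on hypHSC 1, 2 and 3 or qHSC 2, 3 and 5 alone were chosen after seeing the data. Members lower numbered 15 when scaled on *Hprt*, *Pgk1* and *Actb*, 5 with hypHSC 1, 2 and 3 alone and 5 with qHSC 2, 3 and 5 alone, and 6 to 10 with a library left out. Scaling on those genes gave 13 called adaptors, 8 NF-κB core, 7 MAP kinase and 2 shedding genes, and scaling to the same total 6 MAP kinase genes. The NF-κB core had 2 calls with qHSC 2, 3 and 5 alone and 2 to 4 with a library left out (2 without hypHSC 4, qHSC 1 or qHSC 3), and the family genes outside the member rule 4 with hypHSC 1, 2 and 3 alone. Over all genes tested, 45.0% of the calls were higher in hypHSCs in the main analysis, 32.4% with the same total and 17.4% on the reference genes. This share was 47.1% with hypHSC 1, 2 and 3 alone and 49.1% with qHSC 2, 3 and 5 alone.

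Log2 fold changes that turned sign belonged to members not called. On *Hprt*, *Pgk1* and *Actb* they were -0.77 for *Tnfaip8*, -0.61 for *Tnfaip8l1*, -0.11 for *Traf3*, -0.31 for *Cd40*, -0.48 for *Tnfrsf12a* and -0.41 for *Tnfrsf13c*. With the same total they were -0.19 for *Tnfaip8*, -0.02 for *Tnfaip8l1* and -0.00 for *Tnfrsf13c*. With the hypHSCs of 12 weeks they were -0.28 for *Tnfaip8l1*, -0.07 for *Tnfrsf12a* and -1.33 for *Tnfrsf13c*. *Tnfrsf18* turned to 0.13 (DESeq2), 0.12 (edgeR) and 0.81 (hypHSC 1, 2 and 3 alone), and *Tnfrsf1b* to 0.31, 0.31 and 1.0. With a library left out *Tnfaip8* ranged from -0.01 to 0.26 and *Tnfrsf13c* from -0.56 to 1.0. The cause of these changes was not tested.

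Same-numbered libraries of the groups correlated weakly (0.00815 to 0.129), and 1 of 5 matched its own number best, so the numbers do not pair them. A replicate block gave 14 members higher and 9 lower. Counts near 3 reads limit the members not tested.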

Other observations

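Genes of the same families whose symbols the member rule does not reach were examined as a list of 10, of which 8 were tested. None was higher in hypHSCs, against 17.8% of all genes tested, and 2 were lower, near the 21.7% of all genes. For both, every hypHSC library lay below every qHSC library, as for 22.0% of all genes. *Ngfr*, which encodes the neurotrophin receptor p75, a death domain receptor of the TNF receptor family known in stellate cells, had 189, 165, 147, 3.15 and 0 normalized counts in hypHSC 1 to 5 and 8318, 9201, 7799, 6809 and 7675 in qHSC 1 to 5 (log2 fold change -8.11, SE 1.35, adjusted p = 0.000523, limma). hypHSC 4 and 5 were at or below the floor of 3 reads for this gene, while hypHSC 1, 2 and 3 were not. *Eda*, the ligand ectodysplasin, had 10.8, 0, 0.83, 0 and 0 and 59.7, 38.3, 31.5, 45.4 and 49.5 (log2 fold change -4.60, SE 0.76, adjusted p = 0.000472), and its receptors *Edar* and *Eda2r* were not called (log2 fold change -0.94, adjusted p = 0.672 and log2 fold change -2.13, adjusted p = 0.101). *Relt* and its homologues *Rell1* and *Rell2* were not called either (1.75, 0.15 and 0.50, adjusted p = 0.278, 0.625 and 0.56). *Cd40lg*, the ligand of CD40, and *Cd70*, that of CD27, were not tested, with at most 5.99 and 66.3 normalized counts in any library.

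Several members lie next to each other in the genome, and neighbours did not always share a direction. On chromosome 4 *Tnfrsf8* and *Tnfrsf1b* are 20258 bases apart, and *Tnfrsf8* had reads in every hypHSC library and 1 qHSC library, while *Tnfrsf1b* ranged in hypHSCs from 10.6 to 1369 around the qHSC values. On chromosome 6 *Ltbr* and *Tnfrsf1a* were both lower and *Cd27*, 69543 bases from *Ltbr*, had at most 19.1 normalized counts. On chromosome 12 *Tnfaip2* and *Traf3* lie 175502 bases apart, with log2 fold changes of 4.06 and 0.82.

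Summed over the ligands, levels per length ranged from 25.4 to 86.3 FPKM in hypHSCs and from 40.7 to 46.6 in qHSCs. Summed over the receptors they ranged from 30.9 to 78.5 and from 175 to 236, a gap carried by *Tnfrsf11b*, since without it the ranges were 29.5 to 76.7 and 62.6 to 90.5 and overlapped, and over the TRAFs from 3.30 to 14.2 and from 17.3 to 20.9.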
